A study of Taeniopygia guttata with 23 samples.

Results

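Active promoters in the auditory forebrain of young male zebra finches (Taeniopygia guttata) are described here as stretches of DNA that carried 2 marks of transcription and neither of 2 repressive marks. The active marks were histone H3 trimethylated at lysine 4 (H3K4me3) and RNA polymerase II (Pol II), and the repressive ones were H3K27me3 and H3K9me3. All 4 were measured by chromatin immunoprecipitation and sequencing (ChIP-seq) and deposited as lists of islands, which are intervals of the genome enriched in reads. Overlapping or touching H3K4me3 islands of the 4 day 67 libraries were merged into regions. A region counted as an active promoter if it was shorter than 8 kb, had an H3K4me3 island and a Pol II island in all 4 day 67 libraries, and met no H3K27me3 or H3K9me3 island in any of the 5 libraries of those marks. There were 1422 such promoters among 20267 merged H3K4me3 regions, or 7.02%, and among 14349 regions with H3K4me3 in all 4 libraries, or 9.91%. The promoters were chosen by these islands, so the presence of H3K4me3 and Pol II at day 67 is no result. The absence of the other marks at both ages is no result either. No gene annotation was joined to the regions, no measure of RNA was used, and the name stands for this combination of marks alone.

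The Isolate group consisted of males that were kept with 2 adult females from day 21 after hatching and were taken on day 67. The Tutored group had 1 adult male and 1 adult female as company from the same day, and was also taken on day 67. The P32 group was taken on day 32, after a life in the home flight aviary. Each mark had 2 Isolate libraries, 2 Tutored libraries and 1 P32 library, all of dissected whole tissue of males. The labels do not say how many birds went into a library or whether the replicates were separate birds, so a p-value measures only the spread between these libraries, which may be technical. The tissue holds many cell types, and fewer cells with a mark cannot be told apart from less of the mark in each cell. Gene markers of the tissue were not checked here, since the regions carry no gene names.

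The zebra finch is a songbird, and young males learn their song by listening to an adult male. The auditory forebrain takes part in the hearing and memory of song. H3K4me3 is laid down at gene starts by methyltransferases of the SET1 and MLL families, and it marks most promoters at which transcription begins. Pol II binds at the promoter, often pauses shortly after it, and then moves along the gene body, so that its signal commonly reaches past the promoter on the downstream side. H3K27me3 is the mark of the Polycomb repressors and H3K9me3 that of heterochromatin, and both are commonly found at genes that are switched off.

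Lists of unequal depth and length chose the set. The deposited islands held 4286003 to 11303863 reads per H3K4me3 library and 1579718 to 3780427 reads per Pol II library. The fewest Pol II reads, 1579718, were those of the P32 library. Of the 14349 regions with H3K4me3 in all 4 libraries, 3054 also had Pol II in all 4. The lack of H3K27me3 left 2310, the lack of H3K9me3 left 1593, and the length limit left 1422. The second Tutored Pol II library had 8589 islands, where the other 3 day 67 libraries had 15198 to 19656. A further 1534 regions met everything but Pol II in that library, whereas 7, 84 and 38 regions missed it only in Isolate replicate 1, Isolate replicate 2 and Tutored replicate 1. With the second Tutored replicate of every mark left out, the rule gave 3022 promoters. The P32 H3K9me3 library decided most of the H3K9me3 step. Of the 717 regions removed there, 688 had an H3K9me3 island at P32 alone and 29 had one in a day 67 library. At the length limit, 16 promoters of 7.8 kb lay just inside and 9 regions of 8 kb just outside, and 171 regions were lost to it in all.

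The promoters were mostly a few kilobases long and carried dense H3K4me3 over their length. Their median length was 4.0 kb, with quartiles of 2.6 and 5.2 kb and extremes of 0.4 and 7.8 kb. Among the 16 longest, of 7.8 kb, was chr6:22779401-22787200, where H3K4me3 reads numbered 1899 and 4175 in the Isolate libraries and 1904 and 4113 in the Tutored libraries. Among the shortest, of 0.4 kb, was chr3:191601-192000, with 46 and 126 reads in Isolate and 52 and 143 in Tutored. Replicate 2 held more reads than replicate 1 in both groups at either promoter, as in the whole lists, so levels are given as reads scaled to the reads of the library in the tested regions (CPM) and per kb of region. On that scale the median promoter had 20.6 CPM per kb, and single promoters had 2.24 to 89.7 CPM per kb as the mean of the 4 libraries. The densest was chr2:65095401-65096600, with 96.7 and 80.0 CPM per kb in Isolate and 98.8 and 83.4 CPM per kb in Tutored. It was followed by chr13:2709001-2711800 with 82.3 ± 2.68 CPM per kb and chr5:33321801-33329200 with 75.6 ± 12.04 CPM per kb (SD, n = 4 libraries). The last of these was dense over a length of 7.4 kb, while the first was 1.2 kb long.

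H3K4me3 was denser at the active promoters than at the other 12927 regions that had the mark in all 4 libraries. The median of the promoters was 20.9 and 20.5 CPM per kb in the Isolate libraries and 20.6 and 20.2 CPM per kb in the Tutored libraries, against 15.6, 15.8, 15.3 and 15.9 CPM per kb for the other regions in the same libraries. The promoters lay above the other regions in 4 of 4 libraries, by 0.39 ± 0.04 on the log2 scale (SD, n = 4; exact two-sided sign-flip permutation test over libraries, p = 0.125, the smallest that 4 libraries allow). The promoters were not the densest class. Of the regions that met the rest of the rule, 1663 had Pol II in 3 day 67 libraries, with a median of 23.4 CPM per kb. Among them, the 1534 that lacked it in the second Tutored library alone had 23.7 CPM per kb, against 20.6 CPM per kb for the promoters. Regions under 8 kb that had H3K4me3 and none of the other marks, 2523 in number, were shorter, with a median of 1.6 kb, and had a median of 11.8 CPM per kb. The 171 regions that met the rule but for their length had 21.6 CPM per kb. The log2 difference of the promoters against them was -0.11 ± 0.02 (SD, n = 4), and the same exact sign-flip permutation test gave p = 0.125. The islands of these same 4 libraries defined the classes that both tests compare. The tests are therefore no support for a difference, and the values are a description.

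**Figure D1:**
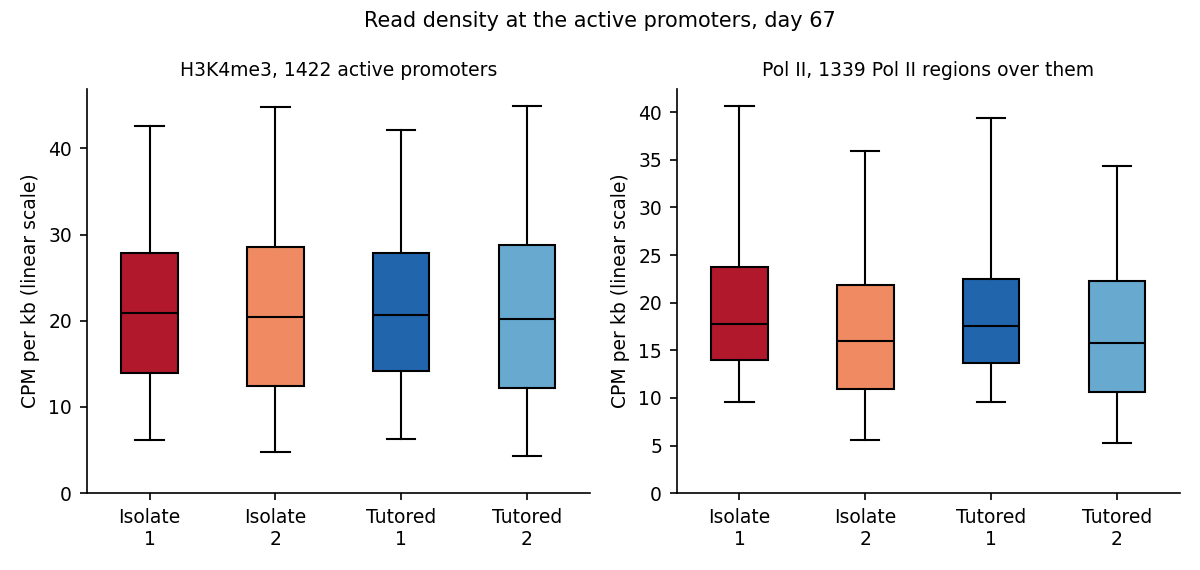
Read density at the active promoters in the 4 day 67 libraries, in CPM per kb on a linear scale that starts at 0. Boxes span the quartiles with the median as a line, and whiskers reach the 5 and 95 percentiles. The H3K4me3 medians lie between 20.2 and 20.9 CPM per kb and the Pol II medians between 15.8 and 17.7 CPM per kb.

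Pol II over the promoters took a wide range of lengths. Merged Pol II islands gave 1339 Pol II regions over 1417 of the promoters, while 5 promoters had Pol II islands that did not join into 1 region of all 4 libraries. A single promoter lay under 1266 of these regions and 2 or more under the other 73, so that 159 promoters share their Pol II value with a neighbour. The Pol II regions had a median length of 6.4 kb, against 9.0 kb for the 3870 Pol II regions elsewhere, and 41.4% of them were longer than 8 kb, against 55.8% elsewhere. Their density was 17.7 and 16.0 CPM per kb in the Isolate libraries and 17.5 and 15.8 CPM per kb in the Tutored libraries, against 14.5, 15.4, 14.9 and 15.7 CPM per kb for the other Pol II regions in the same libraries. With the promoters in 4 groups of near equal size by Pol II density, the Pol II regions had median lengths of 8.4, 7.0, 7.8 and 4.2 kb, low density first. The densest group held Pol II regions of 0.4 to 95.8 kb. The densest 3 Pol II regions measured 0.8, 1.2 and 1.0 kb and had 66.6 ± 12.9, 66.0 ± 31.5 and 64.0 ± 9.11 CPM per kb (SD, n = 4). At the second of them, chr20:1494601-1495800, Pol II reads numbered 262 and 128 in Isolate and 254 and 73 in Tutored, so that replicate 1 was the higher in both groups.

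At many promoters Pol II reached past the H3K4me3 region on 1 side only. Taking all Pol II islands that touched a promoter, the median stretch they spanned was 5100 and 3400 bp in the Isolate libraries, 5200 and 3200 bp in the Tutored libraries and 4200 bp at P32. Pol II stayed within the H3K4me3 region at 34.8% and 47.5% of promoters in Isolate, at 34.2% and 46.9% in Tutored, and at 40.8% of the 984 promoters with Pol II at P32. It reached past 1 side at 47.2% and 39.8% in Isolate, at 48.6% and 43.7% in Tutored and at 49.2% at P32. Past both sides it reached at 18.0% and 12.7% in Isolate, at 17.2% and 9.42% in Tutored and at 10.1% at P32. A reach past 1 side was thus the more frequent form in the replicate 1 libraries and at P32, and Pol II within the region the more frequent in the replicate 2 libraries.

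The side was the same in libraries that had not been used to assign it. Isolate replicate 1 and Tutored replicate 1 placed the longer side, by at least 1000 bp, on the same flank of 572 promoters. Isolate replicate 2 placed it on the same flank at 372 and on the other at 24 of them, or 93.9% on the same, with no longer side by that measure at 176. Tutored replicate 2 had the same flank at 382 and the other at 23, or 94.3%, and no longer side at 167. The P32 library, with Pol II at 435 of the 572, had the same flank at 281 and the other at 34, or 89.2% (exact 95% binomial interval 85.2 to 92.4%, for counting error only). On the assigned flank the mean reach of Pol II was 5.73 kb in Isolate replicate 2, 5.14 kb in Tutored replicate 2 and 3.77 kb at P32, against 0.916, 0.634 and 0.662 kb on the other flank. The median reach was 2.6, 2.8 and 2.8 kb on the assigned flank and 0 kb on the other, so the lower mean at P32 was not seen in the medians. H3K4me3 islands showed no such lean towards the longer Pol II side. Another H3K4me3 region lay within 5 kb on the longer side at 32.3% of these promoters, against 40.6% on the shorter side.

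**Figure D2:**
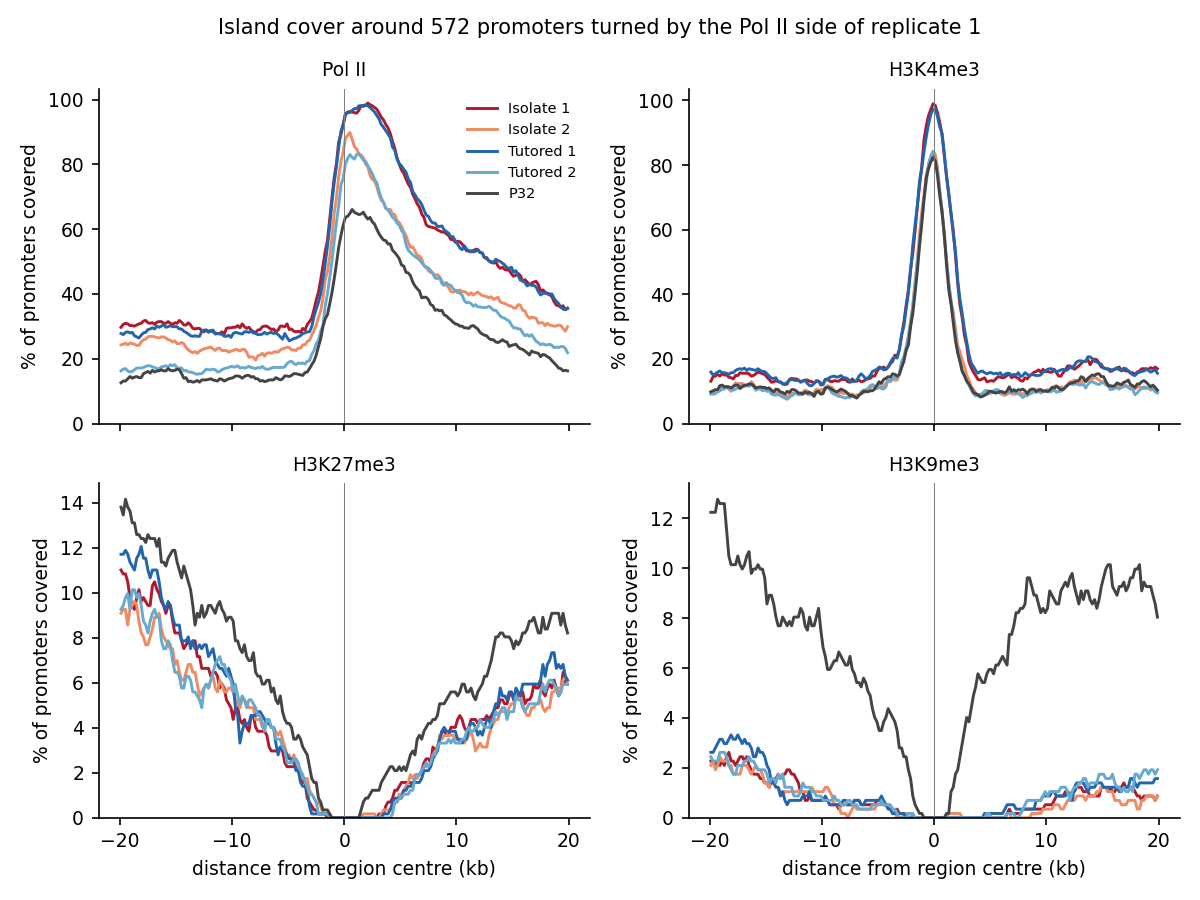
Percent of 572 promoters covered by an island at each distance from the region centre (kb), 1 line per library, with each promoter turned so that its longer Pol II side in the replicate 1 libraries lies to the right. At 4.9 kb to the right Pol II covered 62.1% in Isolate 2, 61.2% in Tutored 2 and 50.9% at P32, against 23.4%, 19.1% and 14.5% at the same distance to the left, while H3K4me3 falls away on both sides. The fall of H3K27me3 and H3K9me3 to 0 at the centre is set by the rule.

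The repressive marks, which the rule kept out of the promoters, lay at differing distances from them. The nearest H3K27me3 island of a day 67 library was at a median of 31.8 kb, against 24.8 kb for the 2523 regions with H3K4me3 alone. It was within 5 kb of 10.2% of the promoters and of 16.6% of the regions with H3K4me3 alone. For the P32 H3K27me3 islands the medians were 35.4 kb for the promoters and 36.0 kb for the regions with H3K4me3 alone. The nearest H3K9me3 island of a day 67 library was at a median of 57.7 kb, against 50.2 kb. The P32 H3K9me3 islands lay nearer to the promoters, at a median of 24.4 kb, against 35.6 kb for the regions with H3K4me3 alone, and 16.4% of promoters, against 10.9%, had one within 5 kb. Regions that met an H3K27me3 or H3K9me3 island had been left out of both classes. For the promoters the H3K9me3 step removed 717 of 2310 regions, 688 of them for an island at P32 alone. The number left out of the other class was not counted, so the distances describe only the regions that remained. Each of these distances comes from lists of 1 age and the P32 value from 1 library, and the differences were not tested.

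A cluster on chromosome 3 held the longest run of promoters with no other H3K4me3 region between them. Its 5 promoters lay in chr3:28569401-28674000, a stretch of 104.6 kb, and 1 Pol II region of 129.8 kb, chr3:28571201-28701000, ran over them and over 2 more. The Pol II region held 6130 and 5280 reads in the Isolate libraries and 6239 and 4955 in the Tutored libraries, or 19.9 and 17.2 against 21.4 and 20.7 CPM per kb. The Isolate libraries were the lower in both replicates, by a log2 difference of -0.15 (SE 0.33, edgeR adjusted p = 1.00). H3K4me3 along the run was uneven. The first promoter had 31.7 ± 2.29 CPM per kb (SD, n = 4) and the others 5.94, 6.30, 16.4 and 6.85 CPM per kb, so that 4 of the 5 lay under the median of the set. Elsewhere promoters were mostly apart. The gap to the next promoter on the same chromosome had a median of 261 kb over 1391 gaps, and 137 gaps were under 10 kb.

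The promoters were more closely spaced on the small chromosomes, which in birds are rich in genes. There were 0.981 promoters per Mb on the 6 autosomes of at least 50 Mb and 1.07 on the Z chromosome. The 8 middle-sized chromosomes had 1.51 and the 20 chromosomes under 20 Mb had 3.13, and 4 of the 20 held none. Those 4, named 16, 1B, LG2 and LG5, were taken as 0.0038 to 1.08 Mb and had 0 to 26 H3K4me3 regions. The build of the genome was not stated, so the sizes in Mb here were not checked against an assembly. They may fall short of full chromosome lengths. All H3K4me3 regions were spaced in the same order apart from Z, at 11.1 regions per Mb on the large autosomes, 9.70 on Z, 16.0 on the middle-sized and 25.9 on the small chromosomes. As a share of the H3K4me3 regions the promoters therefore ranged only from 8.85% on the large autosomes (exact 95% binomial interval 8.17 to 9.56%) over 9.45% on the middle-sized chromosomes and 11.03% on Z (8.82 to 13.6%) up to 12.1% on the small chromosomes (11.02 to 13.2%). Their H3K4me3 density had medians of 22.3 CPM per kb on the large autosomes, 25.2 on Z, 19.5 on the middle-sized and 18.2 on the small chromosomes, so that the chromosomes with the most promoters per Mb had the lowest median. Male birds have a pair of Z chromosomes, so the Z regions are present in the same copy number as the autosomal ones.

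Isolate and Tutored birds had H3K4me3 levels at these promoters that differed by less than the replicates did. Of the 14349 regions tested with edgeR's quasi-likelihood test, 0 passed an adjusted p of 0.05, which is 0% of them, and 0 of the 1422 promoters did. Without adjustment 9 regions had a p under 0.05, 1 of them a promoter, and DESeq2 called 0. With the libraries paired by replicate number (the replicate block) edgeR also called 0, and 510 regions, 25 of them promoters, had an unadjusted p under 0.05. The median log2 fold of Isolate over Tutored was -0.01 over the promoters, and 95% of them lay between -0.29 and 0.31, with a median SE of 0.247 for a single promoter, or 0.112 with the replicate block. A fold of 2 or more was seen as higher in Isolate at 1 promoter, against 0.0697% of all regions, and as lower at 0, against 0.112%. The replicates taken apart had medians of -0.01 and 0.00, and the direction was the same in both for 683 promoters, or 48.0%. In the same promoters the median absolute log2 difference between Isolate and Tutored was 0.12 in replicate 1 and 0.08 in replicate 2, while that between replicates was 0.27 within Isolate and 0.31 within Tutored. The difference between replicates includes whatever libraries of 1 replicate number share, and replicate 2 had more reads in both groups. It is therefore no measure of the spread among birds. The promoters took 12.3% and 11.8% of all H3K4me3 reads in the Isolate libraries and 12.3% and 11.9% in the Tutored libraries. These shares overlap, and they did not differ in an exact two-sided permutation test (p = 1, with 1 in 3 as the smallest p that 2 against 2 libraries allow).

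The promoters with the lowest p in either direction had H3K4me3 densities under the median of the set. The promoter with an unadjusted p under 0.05 was chr26:4272801-4278800, with 203 and 356 reads in Isolate and 280 and 723 in Tutored. On the CPM scale it had 40.3 ± 11.1 in Isolate and 67.5 ± 1.20 in Tutored (SD, n = 2 each), a log2 fold of -0.75 (SE 0.29, edgeR adjusted p = 1.00). The groups did not overlap there, and the islands covered 3.8 and 3.2 kb of it in Isolate against 5.8 and 4.0 kb in Tutored. Among promoters higher in Isolate in both replicates the lowest p belonged to chr17:772601-773800, with 31 and 79 reads in Isolate and 19 and 40 in Tutored (log2 fold 0.81, SE 0.36, edgeR adjusted p = 1.00). Its islands covered 1.0 and 1.2 kb in Isolate and 0.4 kb in each Tutored library, and with the covered length as an offset the log2 fold was -0.64. Next came chr1A:5018401-5021000 with 55 and 136 reads in Isolate and 24 and 93 in Tutored, and chr2:152995001-153001200 with 220 and 408 reads in Isolate and 129 and 275 in Tutored. These 3 promoters had 4.76, 3.84 and 5.89 CPM per kb. On the lower side stood chr15:5105601-5109800, with 116 and 209 reads in Isolate and 197 and 314 in Tutored, and chr7:33258201-33261400, with 159 and 477 in Isolate and 232 and 545 in Tutored. The 3 promoters lower in Isolate, on chromosomes 26, 15 and 7, had 8.99, 7.33 and 14.7 CPM per kb. The covered length as an offset turned the sign on chromosomes 1A and 2 as well, to -0.10 and -0.62. With the replicate 1 libraries exchanged, whose file names carry the letter of the other group, the log2 folds were -0.24 on 1A, -0.20 on 2, 0.20 on 15 and 0.14 on 7. Pol II at the 6 promoters had log2 folds between -0.18 and 0.42, with SEs of 0.35 to 0.44.

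Pol II over the promoters likewise differed less between the groups than between replicates. Of the 5209 Pol II regions tested with edgeR, 0 passed an adjusted p of 0.05, or 0%, and 0 of the 1339 over promoters did, while 62 regions, 9 of them over promoters, had an unadjusted p under 0.05. With the replicate block edgeR also called 0, with 265 regions and 41 over promoters at an unadjusted p under 0.05. DESeq2 called 1 Pol II region in all, which was not over a promoter. The median log2 fold of Isolate over Tutored was 0.06, and 95% of the regions lay between -0.57 and 0.74, with a median SE of 0.425, or 0.230 with the replicate block. A fold of 2 or more was seen as higher in Isolate at 13 of the regions over promoters, or 0.971%, against 1.46% of all Pol II regions, and as lower at 4, or 0.299%, against 0.845%. The replicates taken apart had medians of 0.04 and 0.00, and 722 regions, or 53.9%, had the same direction in both, against 57.8% of all Pol II regions. The median absolute log2 difference between the groups was 0.17 in replicate 1 and 0.27 in replicate 2, and that between replicates was 0.42 within Isolate and 0.49 within Tutored. Here too the difference between replicates includes whatever libraries of 1 replicate number share. Without the first Tutored library edgeR called 21 Pol II regions, 7 of them over promoters, and without the first Isolate library it called 14 and 0 over promoters. The Pol II regions over promoters took 16.6% and 18.4% of Pol II reads in the Isolate libraries and 16.6% and 23.7% in the Tutored libraries (exact two-sided permutation test, p = 1). The fourth value stands apart, and it belongs to the library with 8589 islands.

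**Figure D3:**
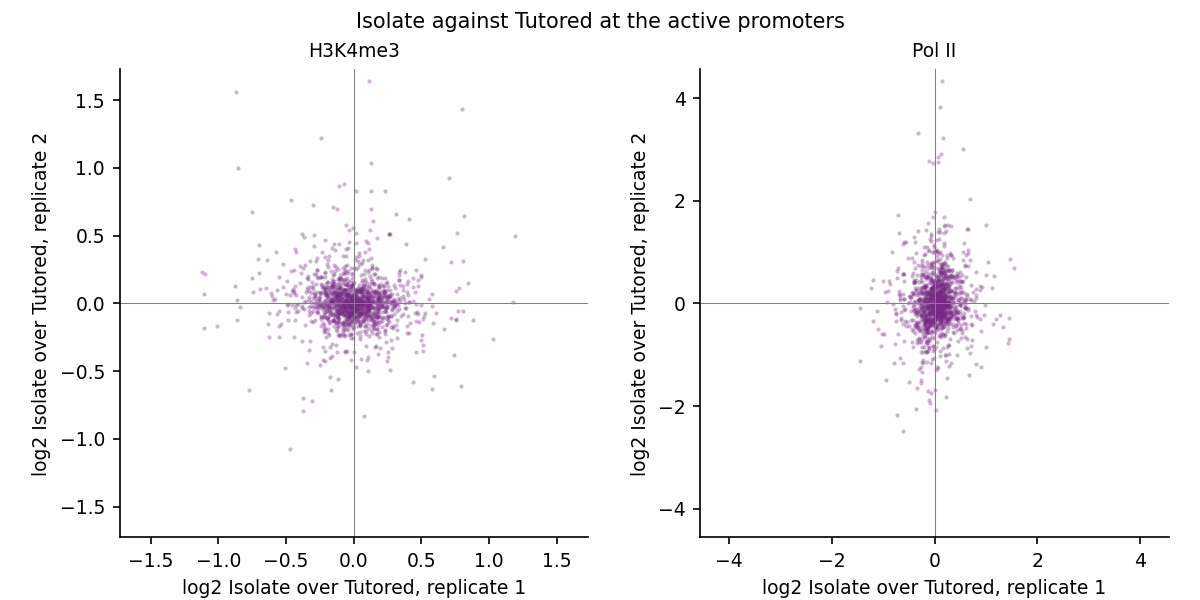
Log2 difference of Isolate over Tutored at each of 1422 promoters for H3K4me3 and 1339 Pol II regions for Pol II, with replicate 1 on the horizontal and replicate 2 on the vertical axis. The points gather around 0 in both directions, and 48.0% of the promoters and 53.9% of the Pol II regions have the same sign in both replicates.

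The Pol II regions with the lowest p had unequal cover by islands in the 2 groups. At chr5:23962801-23978400, a region of 15.6 kb, Pol II reads numbered 322 and 386 in Isolate and 152 and 105 in Tutored. The log2 fold was 1.30 (SE 0.43, edgeR adjusted p = 1.00), and both Isolate libraries lay above both Tutored ones. Islands covered 7.6 and 12.2 kb of it in Isolate and 3.6 and 2.6 kb in Tutored, and with the covered length as an offset the log2 fold was -0.35. The H3K4me3 of its promoter, chr5:23971001-23978400, had 907 and 2631 reads in Isolate and 887 and 2521 in Tutored, a log2 fold of 0.01. In the other direction chr5:34161001-34167200 had 70 and 87 Pol II reads in Isolate and 182 and 148 in Tutored (log2 fold -1.24, SE 0.41, edgeR adjusted p = 1.00). Its islands covered 1.8 and 2.8 kb in Isolate and 5.8 and 5.2 kb in Tutored, and the log2 fold with the offset was 0.03. At chr9:2353001-2356800, Pol II had 121 and 174 reads in Isolate and 71 and 33 in Tutored, and at chr1:43203001-43206800 it had 139 and 118 in Isolate and 45 and 57 in Tutored. The log2 folds of these were 1.37 and 1.12, and -0.08 and -0.43 with the offset. Among the 6 Pol II regions with the lowest p, 3 in each direction, 6 changed sign when the covered length was an offset. The lists give reads inside islands alone, so a difference in reads here includes a difference in the stretch that was called.

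Most of the promoters also had H3K4me3 at P32, and a larger share of them than of other H3K4me3 regions had Pol II at P32. The P32 libraries of these marks had no part in the rule. Regions with a repressive island at P32 had, however, been left out of the promoters and were kept among the other regions. The P32 shares of H3K4me3 and Pol II therefore compare groups that also differed in repressive marks at P32 by choice. The rule did ask for Pol II in all 4 day 67 libraries, which 3054 of the 14349 regions had and most of the other regions lacked. The Pol II shares at P32 therefore compare groups that already differed in Pol II at day 67 by choice. An H3K4me3 island of the P32 library met 1368 of the 1422 promoters, or 96.2% (exact 95% binomial interval 95.1 to 97.1%), against 94.6% of the other H3K4me3 regions and 94.7% of all 14349. A Pol II island of that age met 984 promoters, or 69.2% (66.7 to 71.6%), against 21.1% of the other regions (20.4 to 21.8%) and 25.9% of all. Among regions with H3K4me3 alone the share was 3.69%, and among those that met the rule but were 8 kb or longer it was 86.5%. There was 1 P32 library per mark, so the intervals cover counting error only and no test was made. The P32 Pol II library held 1579718 reads in islands, against 1991518 to 3780427 at day 67. The part of depth in its calls was not tested. When only an island over at least 50% of the promoter counted, the shares were 78.6% for H3K4me3 and 52.5% for Pol II. The shares of the other regions at that cover were not computed, so the comparison with them holds for an overlap of any length alone.

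The share with Pol II at P32 followed the number of day 67 libraries in which Pol II was called. Over the 8249 regions under 8 kb with H3K4me3 in all 4 libraries and no repressive mark, it was 3.69%, 8.51%, 19.1%, 32.3% and 69.2% for Pol II in 0, 1, 2, 3 and 4 day 67 libraries. The regions that lacked Pol II in the second Tutored library alone had it at P32 in 32.1% of cases (29.7 to 34.5%), under the promoters' share. Within the promoters the share also went with length, with 54.3% of 184 promoters under 2 kb, 66.3% of 525 from 2 to under 4 kb, 71.9% of 491 from 4 to under 6 kb and 82.4% of 222 from 6 kb up. Their Pol II regions had median lengths of 2.1, 6.0, 7.8 and 11.2 kb in the same order. By chromosome class the share was 74.4% on the large autosomes, 75.6% on Z, 67.2% on the middle-sized and 62.6% on the small chromosomes. Longer intervals have more room for an overlap of 1 bp, and the part of length in these shares was not tested.

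**Figure D4:**
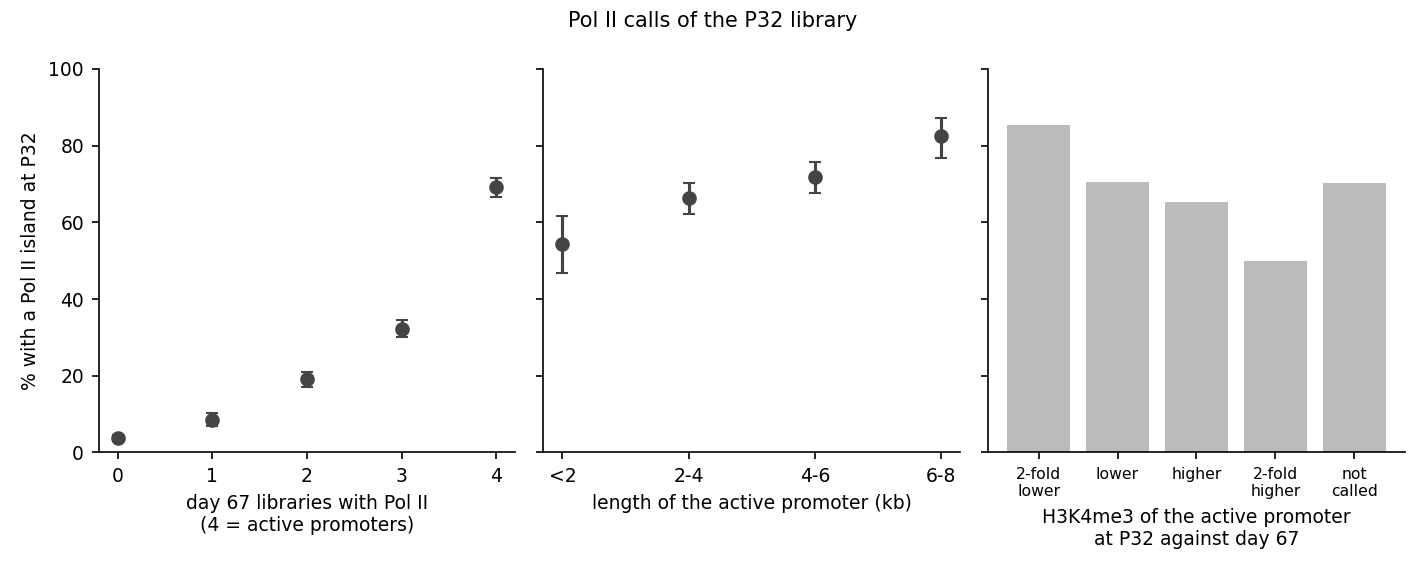
Percent of regions with a Pol II island in the P32 library. The left panel shows regions by the number of day 67 libraries with Pol II, the middle panel the active promoters by length (both with exact 95% binomial intervals), and the right panel the active promoters by their H3K4me3 at P32 against day 67. The share is 3.69% with Pol II in 0 day 67 libraries and 69.2% at the active promoters, and 85.5% where H3K4me3 was at least 2-fold lower at P32.

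The 54 promoters without H3K4me3 at P32 were among the sparsest of day 67. Their median density at day 67 was 5.06 CPM per kb, against 21.1 CPM per kb for the 1368 with an island. When the promoters were divided into 5 groups of equal size by density, all 54 fell into the lowest group, which ranged between 2.24 and 11.99 CPM per kb and in which 231 of 285 had an island. In the other 4 groups every promoter had one. Pol II was called at P32 at 38 of the 54, or 70.4%, which is close to the share over all promoters. Over the density groups the share with Pol II at P32 was 64.6% in the lowest and 73.7% in the highest.

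H3K4me3 at P32 had a median near that of day 67 over the promoters, with more promoters lower than higher at P32 among the large differences. The edgeR test covered 13513 regions called in all 5 libraries, among them 1365 regions over 1368 promoters, and gave 0 calls at an adjusted p of 0.05, or 0%. At an unadjusted p under 0.05 there were 3121 regions, 281 of them over promoters. The number of calls depended strongly on the model. DESeq2 called 1114 regions, of which 177 were higher and 937 lower at P32, with 6 higher and 74 lower among the 80 over promoters. With the replicate number as a block and P32 given number 1, edgeR called 6768 regions, 3377 higher and 3391 lower at P32, with 287 higher and 399 lower among the 686 over promoters. With 1 day 67 library left out at a time it called 697 to 1180 regions, with 47 to 69 over promoters. The median log2 fold of P32 over day 67 was -0.04 over the promoters, with quartiles of -0.48 and 0.32, and 0.01 over all regions. Of the promoters 95% lay between -1.54 and 0.89, and of all regions 95% lay between -1.99 and 1.28. A fold of 2 or more was seen as higher at P32 at 18 promoters, or 1.32%, against 5.95% of all regions. It was seen as lower at P32 at 110 promoters, or 8.06%, against 11.6% of all. The rule asked for H3K4me3 and Pol II calls at day 67 alone. It also left out regions with an H3K27me3 or H3K9me3 island at P32. A difference between the ages at these promoters, such as a lower value at P32, is therefore a description.

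The largest differences in H3K4me3 were toward lower values at P32. At chr1A:13781401-13788200 H3K4me3 reads numbered 327 and 1097 in Isolate, 298 and 1077 in Tutored and 23 at P32. That was 13.05 ± 2.35 CPM per kb at day 67 (SD, n = 4) and 0.668 CPM per kb at P32, a log2 fold of -4.29 (SE 0.43, edgeR adjusted p = 0.0710) for P32 over day 67. Every day 67 library lay above the P32 library. Pol II over the same promoter had 237 and 47 reads in Isolate, 287 and 153 in Tutored and 241 at P32, a log2 fold of 1.29 (SE 0.73). At chr2:52161201-52168400 the H3K4me3 reads were 174 and 701 in Isolate, 193 and 619 in Tutored and 22 at P32 (log2 fold -3.61, SE 0.49, edgeR adjusted p = 0.0710), and the Pol II log2 fold was 1.20 (SE 0.43). At chr3:7891201-7898000 they were 475 and 1431 in Isolate, 545 and 1309 in Tutored and 57 at P32 (log2 fold -3.49, SE 0.26, edgeR adjusted p = 0.0710), and the Pol II log2 fold was 0.84 (SE 0.47). With the replicate block the edgeR adjusted p of the 3 was 5.94e-08, 1.44e-06 and 3.40e-08, and over all alternatives, DESeq2 included, the adjusted p ran between 1.66e-15 and 0.0712. The 3 were picked for their fold and P32 was a single library with no spread of its own, so these p-values are no support for a difference between the ages. At these 3 promoters H3K4me3 reads inside islands at P32 were far under those of every day 67 library. Pol II there had a positive log2 fold for P32 over day 67. P32 H3K4me3 islands covered 0.8, 0.6 and 1.4 kb of them, against 5.6 to 6.8, 5.0 to 6.4 and 6.0 to 6.6 kb at day 67. Reads are counted inside islands alone, so these folds include the difference in the stretch called. No fit with the covered length as an offset was run for P32. The 3 with the largest log2 folds toward higher H3K4me3 at P32 were short. They were chr11:18677601-18678400 with 1.39, chr1:96408801-96410600 with 1.35 and chrZ:24870001-24871600 with 1.26. Their edgeR adjusted p was 0.107, 0.0927 and 0.162, and 0.000193, 0.000357 and 0.000802 with the replicate block, and over all alternatives it ran between 0.000193 and 0.281. The first had 171 and 354 reads in Isolate, 167 and 283 in Tutored and 470 at P32, and no Pol II island at P32.

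Pol II levels at P32 spread more widely around those of day 67, and the P32 library held the fewest Pol II reads. The edgeR test covered 3651 Pol II regions called in all 5 libraries, with 1002 over promoters, and gave 0 calls, or 0%. At an unadjusted p under 0.05 there were 457, with 104 over promoters. DESeq2 called 138 regions, of which 3 were higher and 135 lower at P32, with 1 higher and 28 lower among the 29 over promoters. The replicate block gave 168 calls, with 44 over promoters, and leaving out 1 day 67 library at a time gave 40 to 273, with 8 to 37 over promoters. The direction of the calls depended on the library left out, with 13 higher and 18 lower over promoters without Isolate replicate 1 and 13 higher and 24 lower without Tutored replicate 1. Over all Pol II regions these fits gave 114 higher and 107 lower, and 149 higher and 124 lower. The median log2 fold of P32 over day 67 was -0.09 over promoters and -0.06 over all Pol II regions. A 2-fold higher value at P32 was seen at 48 of the 1002 regions, or 4.79%, against 8.6% of all, and a 2-fold lower one at 120, or 11.98%, against 13.5% of all. In both directions the share over promoters was below that of all Pol II regions.

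The Pol II regions furthest below day 67 in reads inside islands were long ones, and P32 islands covered little of them. At chrZ:39756001-39817800, of 61.8 kb, Pol II reads numbered 2332 and 3241 in Isolate, 2013 and 2383 in Tutored and 149 at P32. The log2 fold was -3.29 (SE 0.61, edgeR adjusted p = 0.237), whereas H3K4me3 at its promoter, chrZ:39802601-39810000, had 867 and 1848 reads in Isolate, 979 and 1831 in Tutored and 939 at P32, a log2 fold of -0.10. At chr14:9160201-9180400 Pol II had 948 and 1143 reads in Isolate, 892 and 1101 in Tutored and 65 at P32 (log2 fold -3.20, SE 0.56, edgeR adjusted p = 0.232). Its promoter, chr14:9170401-9175200, also had no H3K4me3 island at P32, so that both marks were lower or not called there. At chr3:19987001-20011200 Pol II had 549 and 796 reads in Isolate, 470 and 684 in Tutored and 44 at P32 (log2 fold -3.07, SE 0.67, edgeR adjusted p = 0.264), with an H3K4me3 log2 fold of 0.52. Pol II islands covered 4.0, 1.4 and 1.2 kb of these 3 regions at P32. In the day 67 libraries they covered 48.0 to 52.6, 16.4 to 19.0 and 15.2 to 21.2 kb. These folds therefore include the difference in the stretch called, and no fit with the covered length as an offset was run for P32. With the replicate block the edgeR adjusted p of the 3 Pol II regions was 0.0214, 0.0230 and 0.0321, and over all alternatives, DESeq2 included, the adjusted p ran between 5.47e-06 and 0.293, with the same limit of a single P32 library. The 3 largest log2 folds toward higher Pol II at P32 were 2.47 at chr13:10318601-10326200, 1.99 at chr10:5466801-5478800 and 1.89 at chr2:41221001-41240200. Their edgeR adjusted p was 0.225, 0.262 and 0.264, and 0.0522, 0.0510 and 0.0492 with the replicate block, and over all alternatives it ran between 0.000424 and 0.293. DESeq2 gave no adjusted p for those on chromosomes 13 and 10. At the first Pol II reads numbered 57 and 36 in Isolate, 76 and 81 in Tutored and 194 at P32. Pol II islands covered 0.6 to 2.0 kb of its 7.6 kb in the day 67 libraries and 7.6 kb at P32.

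The folds of the 2 marks between the ages had no common direction. Over 1030 promoters with both log2 folds, those of H3K4me3 and of Pol II had a Pearson correlation of -0.22 and a Spearman correlation of -0.19, and 47.2% had the same sign. These points come from the same 5 libraries of each mark, so the correlation is a description. A fold of 2 or more toward lower values at P32 in both marks was seen at 6 promoters, toward higher values in both at 0, and in opposite directions at 17. The correlation, these counts and the shares that follow were computed for the promoters alone. Whether they differ from those over all H3K4me3 regions was not tested. Pol II was called at P32 at 85.5% of the 110 promoters with H3K4me3 at least 2-fold lower at P32, at 70.6% of 623 with a smaller difference in that direction, at 65.3% of 617 with a smaller one toward higher values and at 9 of 18 with a value at least 2-fold higher. The promoters of these groups also differed in length, with medians of 4.6, 4.2, 3.8 and 1.8 kb in the same order, and the part of length was not tested. H3K4me3 islands of P32 covered a mean of 51.4%, 63.8%, 69.4% and 75.8% of them. The groups therefore also differed in the H3K4me3 stretch called at P32, and the part of that was not tested. The alternatives for the fold, namely RLE size factors, DESeq2, the replicate block and each day 67 library left out, gave 79.1 to 87.7% in place of 85.5%. For Isolate over Tutored the log2 folds of the marks had a Pearson correlation of 0.02 over 1417 promoters, and 50.5% had the same sign.

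**Figure D5:**
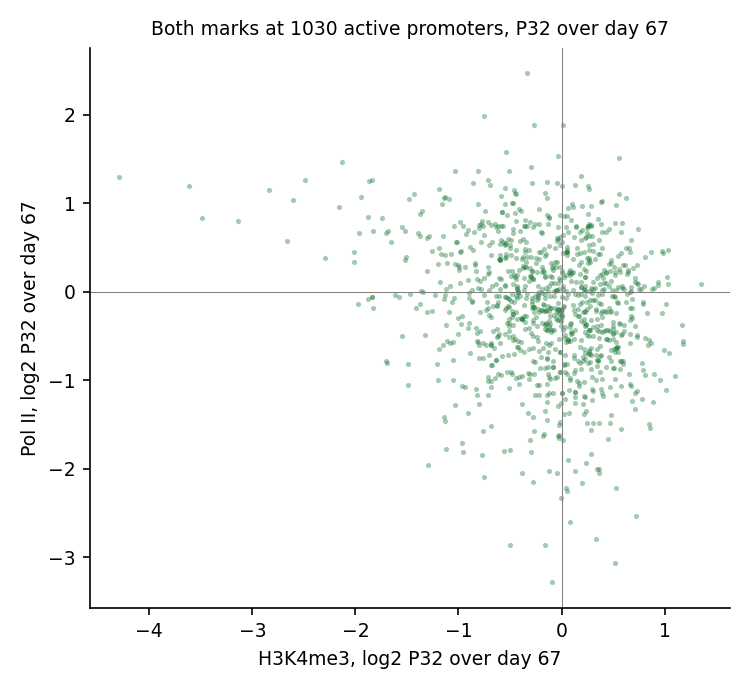
Log2 fold of P32 over day 67 at 1030 active promoters, with H3K4me3 on the horizontal and Pol II on the vertical axis, 1 point per promoter. The 3 points furthest to the left have Pol II log2 folds of 1.29, 1.20 and 0.84, and the Pearson correlation over all points is -0.22.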

How the data were processed

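Auditory forebrain ChIP-seq islands of 20 libraries were used, and 3 inputs were not. BWA 0.6.1, MACS and SICER 1.1 are listed, per the submitters' processing notes, and the build of the genome was not stated there. Per the file headers and names, islands were built from windows of 200 bp, bridging gaps of 200 bp (H3K4me3) or 600 bp (the rest), at an FDR of 1e-05. The values the authors deposited are read counts per island, called library by library. In the replicate 2 Pol II lists the authors also deposited a fold over input (a ratio), while their deposited p-values were not used.

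For the count tests edgeR 4.0.16 ran in R 4.3.3 with TMM factors and robust quasi-likelihood fits, over merged regions called in all libraries compared and adjusted over all of them. DESeq2 1.42.0 was an alternative. Tables were made with pandas 2.3.3 and scipy 1.17.1. Counting intervals are exact and cover counting error only, since reads are not independent molecules. Total sequencing depth is unknown. Library size was the reads in the regions tested.

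Named regions were the longest, the shortest, the densest in H3K4me3 and in Pol II, the longest run, the 3 of lowest p in each direction for Isolate over Tutored among those with 1 sign in both replicates, and the 3 of largest fold in each direction at P32. The promoters and these lists were chosen with earlier results of these data known. Inputs are labelled as pools for replicates 1 and 2 across Isolate and Tutored, so the numbers were taken to pair libraries. Deviations of libraries with the same number from their group means correlated at 0.786 for H3K4me3 and 0.623 for Pol II over all regions. Titles gave the groups. The names of the H3K4me3 replicate 1 files carry the letter of the other group and those of the Pol II replicate 1 files another replicate number. The labels give day 67 and the design text day 65.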

Additional observations from a re-analysis of the deposited data

How the results depend on the processing

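The number of promoters was 1170 to 1593 with islands within 1000 bp merged, a length limit of 6 kb, no length limit or repressive islands kept 1000 bp away. It was 827 when Pol II had to cover at least 50% of the region and 895 with the same number of islands per library. It was 1502 to 3022 with a day 67 replicate left out, the highest without Tutored replicate 2. Chosen after seeing the data, Pol II in at least 3 of the 4 libraries gave 3085. The P32 shares of the promoters at 50% cover were 78.6% and 52.5%, and their Pol II share with equal island numbers was 65.8%. These shares were not computed for other regions.

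For Isolate over Tutored, calls stayed at 0 in every H3K4me3 alternative and with the replicate block for both marks, and the block changed no other call between these groups. DESeq2 called 1 Pol II region and edgeR called 0 to 21 with a library left out, 0 to 7 of them over promoters. The median log2 fold was -0.038 to 0.032 for H3K4me3 and -0.043 to 0.155 for Pol II with a library left out, 0.005137 with the H3K4me3 replicate 1 libraries exchanged, and -0.025206 for Pol II with the covered length as an offset. The share of reads, Isolate minus Tutored in percentage points, ran between -0.227 and 0.220 for H3K4me3 and between -6.18 and 0.976 for Pol II with a library left out, and turned positive for Pol II without Tutored replicate 2. Under the replicate block the P32 comparison gave 6768 H3K4me3 calls (686 over promoters) and 168 Pol II calls (44). DESeq2 gave 1114 (80) and 138 (29), and leaving out a day 67 library gave 697 to 1180 (47 to 69) and 40 to 273 (8 to 37). The cause was not tested.

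For 24 named regions, 209 values were computed under alternatives, of which 142 kept their direction and side of the threshold, 54 newly passed it and 13 changed sign. With the covered length as an offset the H3K4me3 log2 folds were -0.64 on chromosome 17, -0.10 on 1A and -0.62 on 2, and those of Pol II -0.35, 0.033 and 1.04 on chromosome 5 (starts 23962801, 34161001 and 9149201), -0.078 on 9, -0.43 on 1 and 0.30 on 13. With the H3K4me3 replicate 1 libraries exchanged they were -0.24 on 1A, -0.20 on 2, 0.20 on 15 and 0.14 on 7. Island lists hold no reads outside islands, and 1 P32 library gives no spread.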

Other observations

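Within single libraries, promoters with denser H3K4me3 had somewhat denser Pol II in replicate 1 and less clearly so in replicate 2. The Spearman correlation over 1422 promoters was 0.38 and 0.16 in the Isolate libraries and 0.31 and 0.02 in the Tutored libraries, and 0.14 over 946 promoters at P32. These are correlations across regions of 1 library, which share its depth, and regions are not independent replicates. Pol II density was lower where Pol II spanned a longer stretch in each of the 5 libraries, with Spearman correlations between -0.42 and -0.25. Density is a read count divided by a length of Pol II, so part of this negative correlation can come from the way it is computed. The Pol II region over a promoter was also shorter where H3K4me3 was denser. Over 5 groups of equal size by H3K4me3 density its median length was 10.4, 8.1, 7.6, 6.2 and 4.2 kb, low density first, while the promoters themselves had medians of 3.0, 4.0, 4.4, 4.2 and 3.6 kb.

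In the authors' deposited table of replicate 2, Pol II islands over promoters had a median fold over input of 2.46 in Isolate and 2.06 in Tutored. In the same deposited tables other Pol II islands had 2.12 in Isolate and 1.96 in Tutored. The promoters had been chosen for Pol II islands that recur across libraries, these among them. The other islands had to meet no such rule, so the difference between the classes is a description and was not tested.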
